A study of Drosophila melanogaster with 47 samples.

Results

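The data describe where the Hox protein AbdB was bound in the genome of Drosophila melanogaster larvae (stage label W3L). All 737 peaks of the AbdB list were taken, out of 12745 peaks in the 16 lists of the series, and 722 of them lay on the 6 chromosome arms 2L, 2R, 3L, 3R, 4 and X. The AbdB samples were 2 chromatin immunoprecipitation (ChIP) replicates and 1 input of a line with the source label AbdB-GFP, in which AbdB carries a GFP tag. They are 3 of 47 samples. The antibody was an anti-GFP antibody, so the precipitated protein was the tagged one. The labels give neither the tag construct, nor the promoter that drives it, nor the tissue taken, and the files used here hold no expression values by which the stage or the tissue could be checked. Where a peak is higher, more cells with bound AbdB and more AbdB per cell cannot be told apart.

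Anti-GFP was also used for tagged Notch, Hr78 and Lola in larvae of the same stage label (source labels Notch-GFP, Hr78-GFP and LolaI-GFP), for Hr78 in embryos (E8-16) and for Stat92E in embryos (E0-12). The other 10 lists came from antibodies raised against the regulators. Su(H), h, insv and dm were mapped in Kc167 cells and CG8478 in S2 cells, both cultured Drosophila lines. Cmi and br were mapped in embryos (E0-8), prd in embryos (E0-12) with 2 antibodies (prd-RF12 and prd-RF13), and cnc in adult females. The embryos used for Cmi carry the source label Exd-GFP. Each ChIP group had 2 or 3 replicates and 1 deposited list. The list gives no value per replicate, so the spread between replicates is unknown, and every interval below is a 95% exact binomial (Clopper-Pearson) interval that covers counting error over peaks only. The upper limit given for a count of 0 is 3 counts of the total, which lies slightly under the exact bound. Read depth per sample was not analysed here.

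Abd-B is the most posterior Hox gene of the bithorax complex. Hox proteins are transcription factors with a homeodomain, a DNA-binding domain that reads short AT-rich sequences, and they give body segments their identity along the head-to-tail axis. Abd-B acts in the posterior abdominal segments and the genitalia. Hox proteins share similar DNA preferences, and cofactors are known to sharpen where each one binds.

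Most AbdB peaks lay at the low end of the list's range of enrichment. Width ran from 90 to 1711 bp with a median of 372 bp, against medians of 394 bp in Notch and 329 bp in larval Hr78. The fold enrichment of a peak, a linear ratio, and its score, −log10 p, are the authors' own values and are used here only within a list. The fold ran from 1.95 to 5.24 with a median of 2.43, and the score from 5.21 to 26.8 with a median of 6.64. Score and fold ordered the peaks alike (Spearman's rank correlation 0.81 over 737 peaks), and the score also went with width (rank correlation 0.49). All 3 come from the same reads of each peak. The summit, the position of highest signal, lay near the middle of the peak, at a median of 48.4% of its width.

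**Figure D1:**
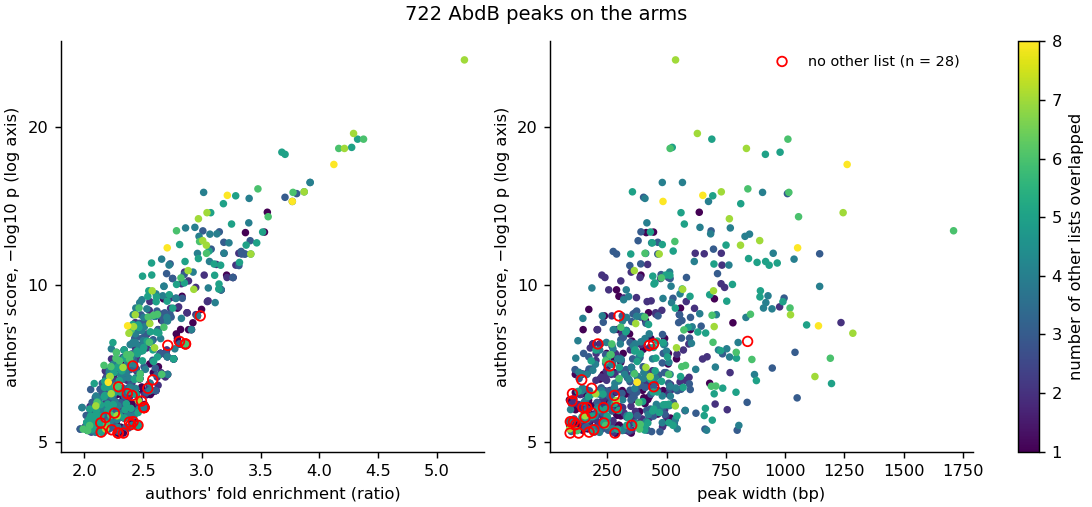
Authors' score (−log10 p, log axis) of the 722 AbdB peaks on the arms against the authors' fold enrichment (left) and the peak width in bp (right). Colour gives the number of other lists a peak overlaps and red circles mark the 28 peaks that overlap none, whose scores do not exceed 8.71.

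The best AbdB peak was also the best peak of 2 other regulators. It lay on 2R at 15993792 to 15994329 (build dm3), 538 bp wide, with the highest AbdB score (26.8) and the highest fold (5.24). The overlapping peak ranked 1 in the Notch and Stat92E lists, 3 in the embryonic Hr78 list and 4 in the CG8478 list. In the Su(H) list it ranked 17, in the larval Hr78 list 87 and in the Cmi list 616.

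The next 4 peaks by score were on 3R and X and had lower scores. The peak on 3R at 8889667 to 8890296 had a score of 19.4 and a fold of 4.29 and overlapped 7 other lists. On X, the peak at 10709308 to 10709998 scored 19.0 with a fold of 4.33, the peak at 16041581 to 16042592 scored 19.0 with a fold of 4.38, and the peak at 4318923 to 4319446 scored 18.3 with a fold of 4.28. All 5 of these peaks overlapped Notch, CG8478 and both Hr78 lists, and the same 5 had the highest folds. Among the 10 best AbdB peaks, all overlapped Notch and both Hr78 lists, 9 overlapped CG8478, 6 Stat92E and none Lola (an upper limit of 30%).

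Some of the best AbdB peaks were among the best peaks of Notch, and few among those of Su(H) or Cmi. All 100 best AbdB peaks overlapped a Notch peak, and 34 overlapped one of the 100 best Notch peaks. For larval Hr78 the counts were 91 and 23, for Stat92E 24 and 16, for CG8478 50 and 16, and for Su(H) 26 and 1. They were 68 and 15 for embryonic Hr78, 19 and 9 for Lola, and 34 and 3 for Cmi. The lists differ in length, so these counts describe each pair and do not rank the partners.

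The most other lists at a peak was 8, at 6 peaks. The 5 of these with the highest scores were 485 to 1262 bp wide, and the remaining one, on X at 12629943 to 12630318, was 376 bp wide. A peak on X at 16110659 to 16111920 (1262 bp, score 17.0) overlapped Notch, Su(H), Cmi, CG8478, both Hr78 lists, insv and Stat92E. The widest AbdB peak of all, on X at 19471862 to 19473572 (1711 bp, score 12.7), overlapped 6. Width alone did not give partners at every peak: the peak on 3R at 3711248 to 3712483 (1236 bp, score 8.46) overlapped Notch and larval Hr78 only. At the other end, of the 5 peaks with the lowest score, each 5.21 and 93 to 351 bp wide, 3 overlapped no other list and 2 overlapped Notch alone.

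AbdB peaks on the arms lay mainly at sites called for other tagged larval proteins. Notch, the receptor whose cleaved intracellular part enters the nucleus, shared 656 of the 722 peaks (90.9%, interval 88.5 to 92.9). The nuclear receptor Hr78 shared 456 in larvae (63.2%, 59.5 to 66.7) and 246 in embryos (34.1%, 30.6 to 37.7). CG8478 shared 251 (34.8%), Su(H), the DNA-binding factor of the Notch pathway, 199 (27.6%), and Cmi, a subunit of a histone methyltransferase complex, 183 (25.3%). The zinc finger protein Lola shared 76 (10.5%) and Stat92E, the transcription factor of the JAK/STAT pathway, 74 (10.2%). The corepressor insv shared 39 (5.40%), and br, h, prd, cnc and dm between 4 and 28 each. Notch was also the longest list, with 2448 peaks on the arms, and these shares depend on list length. With both lists cut to the length of the shorter, 315 of the 722 AbdB peaks had no Notch peak and 379 no larval Hr78 peak.

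The order changed when the share was taken of the other list, since the lists differ in length. AbdB was present at 42.2% of the 187 Stat92E peaks (35.1 to 49.7), at 37.2% of the 1249 larval and 36.5% of the 688 embryonic Hr78 peaks, and at 26.0% of the 2448 Notch peaks. The share was 25.3% for Lola, 19.1% for CG8478, 18.4% for insv, 11.3% for Cmi and 11.2% for Su(H). The interval of Stat92E overlaps those of both Hr78 lists, so these 3 are not ordered.

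**Figure D2:**
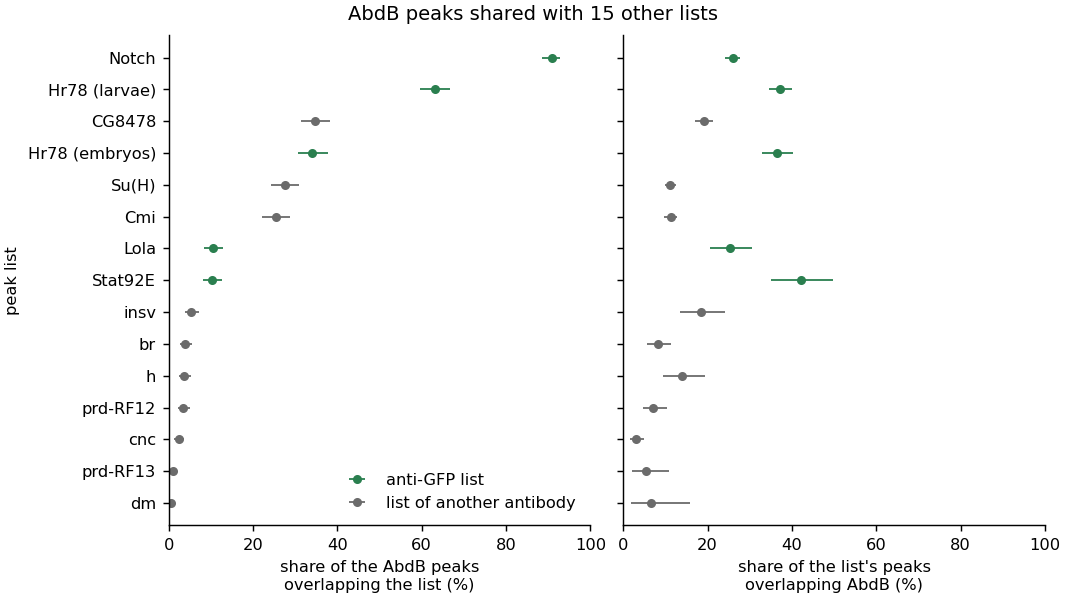
Share of the 722 AbdB peaks that overlap each of 15 other lists (left) and share of each list's own peaks that overlap AbdB (right), in percent with 95% Clopper-Pearson intervals. Green points are lists made with anti-GFP and grey points lists of other antibodies; Notch leads on the left at 90.9% and Stat92E on the right at 42.2%.

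The partners at single peaks were varied. The 722 peaks showed 161 different combinations of other lists, and 92 of these were held by 1 peak each. A peak overlapped a median of 3 other lists. The most frequent combination was Notch alone, at 107 peaks (14.8%), followed by Notch with larval Hr78 (67 peaks) and Notch with both Hr78 lists (41 peaks). Larval Hr78 was seldom found at AbdB peaks without Notch: 448 peaks had both, 208 Notch without larval Hr78, and 8 larval Hr78 without Notch. The other 58 had neither. Larval Hr78 was thus at 12.1% of the AbdB peaks without Notch, and at 23.0% of 87 when each peak was replaced by a window of 400 bp around its summit.

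The lists made with anti-GFP and those of other antibodies met at 381 AbdB peaks (52.8%). Another 288 (39.9%) overlapped anti-GFP lists only and 25 (3.46%) other antibodies only. All 4 larval lists were made with anti-GFP, so the parts of stage and antibody in the shares of the larval lists cannot be told apart. Of the 694 AbdB peaks with any other list, 28 had one but no larval list.

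Within the AbdB peaks, Su(H) and Cmi were more frequent where CG8478 was present, and Stat92E and Lola where embryonic Hr78 was present. The 2 trios were not separate, since CG8478 and embryonic Hr78 were also found together. AbdB peaks with a CG8478 peak had Su(H) in 48.2% (41.9 to 54.6, of 251) against 16.6% without one (13.3 to 20.2, of 471), and Cmi in 48.6% against 13.0%. Lola stood at 6.37% with CG8478 and 12.7% without (intervals 3.69 to 10.1 and 9.86 to 16.1, which overlap). That overlap does not show equal shares, and the difference was not tested. CG8478 peaks lay on wider AbdB peaks (median 451 against 344 bp). With windows of 400 bp, Su(H) stood at 45.3% against 15.2% and Cmi at 43.2% against 13.8%.

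AbdB peaks with embryonic Hr78 had Stat92E in 27.6% (22.2 to 33.7, of 246) against 1.26% without (0.464 to 2.72, of 476), and Lola in 19.1% against 6.09%. Seen from Stat92E, 68 of its 74 AbdB peaks (91.9%) also had embryonic Hr78. Across the trios the shares differed in direction. With embryonic Hr78, CG8478 was at 43.9% (37.6 to 50.3) against 30.0% without (26.0 to 34.4), and at 42.8% against 28.8% with windows of 400 bp. Cmi stood at 31.7% (25.9 to 37.9) against 22.1% (18.4 to 26.1). Su(H) was at 23.2% (18.0 to 29.0) against 29.8% (25.8 to 34.2). Both pairs of intervals overlap, which does not show equal shares, and neither difference was tested. Su(H) was at 11.8% of AbdB peaks with Lola (5.56 to 21.3) against 29.4% of those without (25.9 to 33.1). Larval Hr78 was more frequent with either, at 91.9% with embryonic Hr78 against 48.3% without and at 76.1% with CG8478 against 56.3% without. Again the peaks were wider (469.5 bp with embryonic Hr78, 331 bp without), and with windows of 400 bp Stat92E stood at 27.6% against 1.27%.

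In all, 221 AbdB peaks had at least 1 of CG8478, Su(H) and Cmi but none of embryonic Hr78, Stat92E and Lola. Another 137 had the reverse, 144 had members of both and 220 of neither. Median width was 366 bp in the first set, 403 in the second, 525.5 with both and 288 with neither. These groupings were made after the shares were seen and are descriptions without a test.

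AbdB peaks with a higher score had more anti-GFP partners. The list was split at its median score into 361 higher and 361 lower peaks, and the overlap with each list was compared by Fisher's exact test, two-sided, with Benjamini-Hochberg adjustment over 15 lists. Overlap was higher in the higher-scoring set for 7 of the 15 lists (46.7% of the tests) and lower for none, although br was lower at an unadjusted p of 0.0322 in the exact test. All 5 other anti-GFP lists were among the 7, with CG8478 and prd-RF12. The widths differed too, with medians of 452 and 288 bp.

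Embryonic Hr78 showed the largest difference in percentage points, 45.7% against 22.4% (exact adjusted p = 7.83e-10). Larval Hr78 stood at 74.2% against 52.1% (exact adjusted p = 6.63e-09), Stat92E at 15.8% against 4.71% (exact adjusted p = 4.99e-06) and Notch at 95.8% against 85.9% (exact adjusted p = 1.42e-05). Lola was at 14.7% against 6.37% (exact adjusted p = 0.00114), CG8478 at 40.4% against 29.1% (exact adjusted p = 0.00436) and prd-RF12 at 5.26% against 1.66% (exact adjusted p = 0.0279).

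Su(H) overlap was 28.3% in the higher and 26.9% in the lower set (exact adjusted p = 0.795), with intervals of 23.7 to 33.2 and 22.4 to 31.8. Cmi stood at 28.3% against 22.4% (exact adjusted p = 0.145) and br, a zinc finger protein of the ecdysone response, at 2.22% against 5.54% (exact adjusted p = 0.0604). When the list was split at its median fold in place of the score, 3 lists were higher (Notch, embryonic Hr78 and Stat92E) and br was lower. Larval Hr78 then stood at 64.3% against 62.0% and CG8478 at 32.9% against 36.6%, neither called. Widths were closer in that split, 418 and 331 bp.

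Cutting the list into quartiles by score, 4 sets of 180 or 181 peaks, gave the course along it. Notch overlap was 98.9% in the best quartile, then 92.8%, 87.8% and 83.9% in the last. Embryonic Hr78 stood at 55.2%, 36.1%, 26.0% and 18.9%, and Stat92E at 18.8%, 12.8%, 7.18% and 2.22%. Su(H) stood at 26.5%, 30.0%, 23.8% and 30.0%. Larval Hr78 was at 83.4% and 65.0% in the upper quartiles and at 52.5% and 51.7% in the lower ones, whose intervals overlap nearly in full. Peaks with no other list numbered 1 in the best quartile and 12 in the last.

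**Figure D3:**
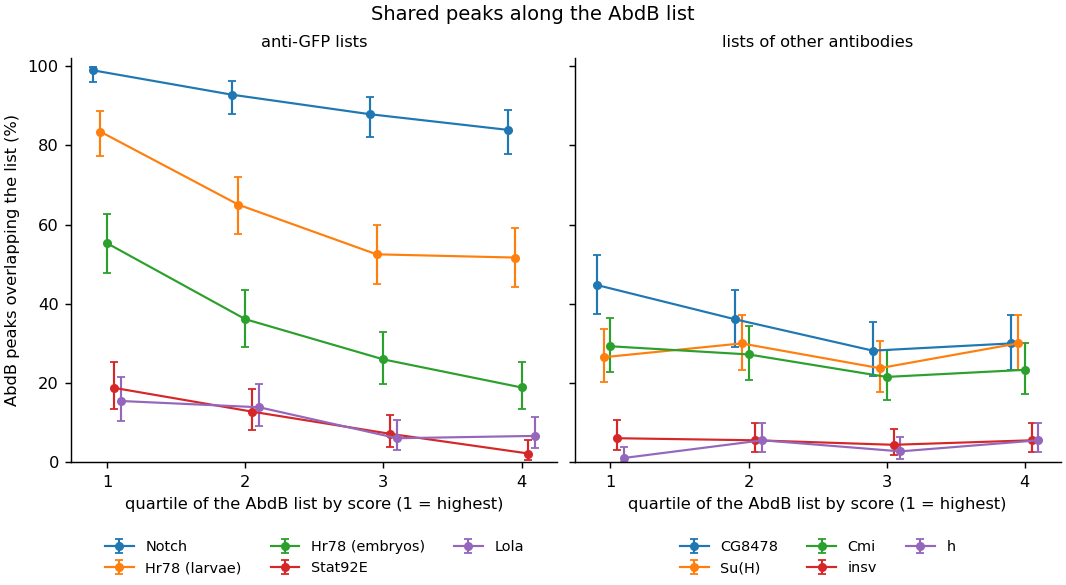
Share of AbdB peaks that overlap another list (percent, with 95% Clopper-Pearson intervals) in each quartile of the AbdB list by the authors' score, from highest (1) to lowest (4), with 180 or 181 peaks a quartile; left, anti-GFP lists, right, 5 lists of other antibodies. Embryonic Hr78 runs from 55.2% to 18.9%, while Su(H) is at 26.5% in the first quartile and 30.0% in the last.

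From the other side, AbdB was more frequent at the best peaks of several lists. It was at 55.7% of the Notch peaks in the best quartile of the Notch list and at 6.70% in the last, and for larval Hr78 the shares ran from 56.5% to 20.2%. For CG8478 they ran from 38.3% to 8.11%. In Stat92E the best quartile stood apart, with AbdB at 72.3% of its 47 peaks and at 29.8% to 36.2% in the other quartiles. In Su(H) the share was 16.7% in the best quartile and 8.53% to 10.1% in the others. Other lists showed no such course: prd-RF12 had 1.15% in its best quartile and 6.90%, 12.6% and 8.05% in the others, insv ran between 16.4% and 22.2%, and br and h had no fall from first to last. Median width falls along these lists as well, from 680 to 223 bp in Notch and from 591 to 187 bp in CG8478, and its part in the shares was not tested.

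At shared peaks, the agreement between AbdB and the other list depended on the value used. Spearman's rank correlation of the scores over the peaks was 0.40 with Notch (n = 656), 0.33 with larval Hr78 (n = 456), 0.24 with Stat92E (n = 74) and 0.21 with CG8478 (n = 251). It was 0.10 with Su(H) (n = 199), 0.09 with embryonic Hr78 (n = 246) and −0.01 with Cmi (n = 183). The rank correlation of the folds was 0.36 with Stat92E, 0.33 with Notch, 0.30 with CG8478 and 0.20 with larval Hr78, and Pearson's r of the scores was 0.48 with Notch, 0.44 with Stat92E and 0.30 with larval Hr78. These are descriptions across peaks, which share libraries and width, and carry no p.

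AbdB peaks away from larval Hr78 were compared with larval Hr78 peaks away from AbdB, 266 against 784 peaks that hold no peak in common. Both sets came from the same stage label and antibody, and median widths were close at 285 and 267 bp. Of 14 other lists, 3 differed (21.4% of the tests), 1 higher in the AbdB set (7.14%) and 2 lower (14.3%), by Fisher's exact test, two-sided, with Benjamini-Hochberg adjustment over 28 tests, those against Notch included. Embryonic Hr78 was at 7.52% of the AbdB set and at 34.3% of the Hr78 set (exact adjusted p = 2.05e-18), which is the same protein as the Hr78 set at another stage. Leaving out AbdB peaks with larval Hr78 removed 226 of the 246 AbdB peaks with embryonic Hr78. Over all 722 AbdB peaks embryonic Hr78 stood at 34.1%, so this call describes the peaks left over and not the AbdB list. Cmi was at 13.9% against 21.3% (exact adjusted p = 0.0426). The BEN-domain protein insv was higher in the AbdB set, at 6.02% against 2.42% (16 and 19 peaks, exact adjusted p = 0.0426).

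Notch itself was found about as often in both sets, 78.2% (72.7 to 83.0) and 76.3% (73.1 to 79.2), with an adjusted p of 0.898. CG8478 stood at 22.6% in both and Su(H) at 22.2% and 20.8%. The embryonic Hr78 call was kept in all 6 alternatives, each of which also left out the shared peaks. The insv call was lost on the arms other than X and among the higher-scoring peaks of each list. The Cmi call was lost there too and in 3 more alternatives, and among the higher-scoring peaks Cmi was higher in the AbdB set by 3.09 points.

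AbdB peaks without Notch were few and narrow. There were 66, with a median width of 236.5 bp and no score over 8.97, against 1812 Notch peaks without AbdB with a median width of 330 bp. Again 3 of 14 lists differed (21.4%), 1 higher in the AbdB set (7.14%) and 2 lower (14.3%). Larval Hr78 was at 12.1% of the AbdB set against 29.1% (exact adjusted p = 0.0188) and embryonic Hr78 at 4.55% against 16.6% (exact adjusted p = 0.0411). Leaving out AbdB peaks with Notch removed 448 of the 456 with larval Hr78 and 243 of the 246 with embryonic Hr78. Over all 722 AbdB peaks the shares were 63.2% and 34.1%, so both calls describe the few peaks left over and not the AbdB list. The insv list was at 12.1% against 1.49% (8 and 27 peaks, exact adjusted p = 2.35e-04). Over all 722 AbdB peaks insv stood at 5.40%, and at 4.73% of the 656 with Notch, so this call too describes the few peaks left over. Su(H) stood at 27.3% against 15.2% and was not called (exact adjusted p = 0.0574).

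With windows of 400 bp in place of the peaks, 6 lists were called, all higher in the AbdB set, and neither Hr78 list was among them. Both Hr78 calls were also lost on the arms other than X, and that of embryonic Hr78 among the higher-scoring peaks of each list. With both lists cut to equal length the differences were −34.0 points for larval and −40.8 points for embryonic Hr78, against −17.0 and −12.0 in the full lists. The sets then held 315 AbdB and 336 Notch peaks, against 66 and 1812 in the full lists. These differences are therefore not from the same peaks and their sizes cannot be set side by side. The insv difference of 10.6 points was lost as a call among the higher-scoring peaks, at 3.66 points, and was called at 4.84 points in the lists of equal length.

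**Figure D4:**
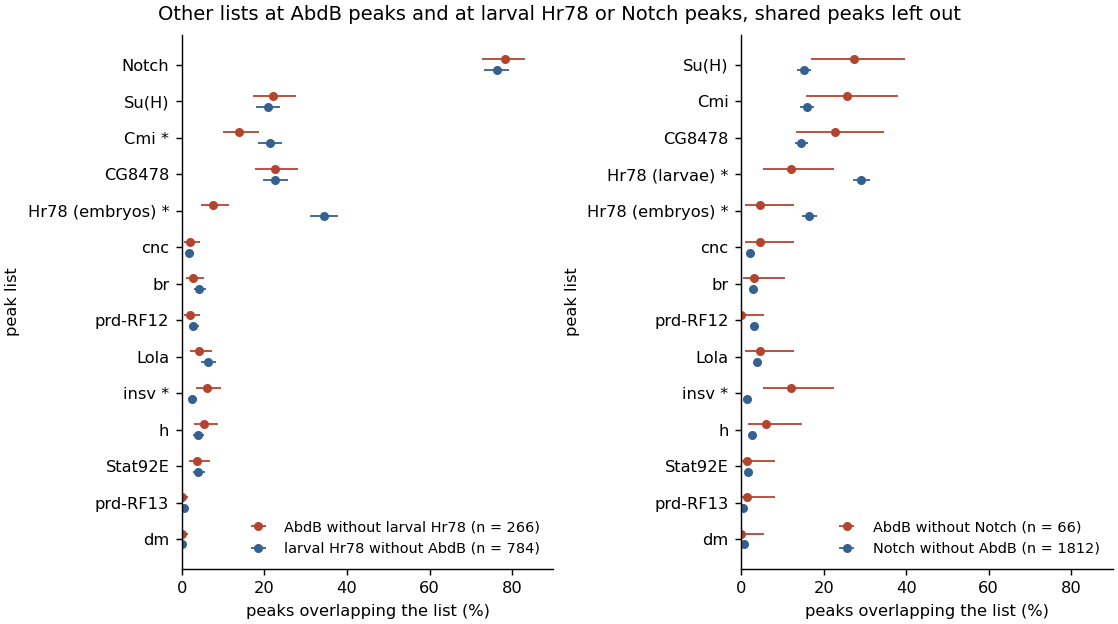
Share of peaks that overlap each of 14 other lists (percent, with 95% Clopper-Pearson intervals) for AbdB peaks (red) and for larval Hr78 (left) or Notch (right) peaks (blue), after peaks common to AbdB and that list were left out; an asterisk marks an adjusted p under 0.05. Embryonic Hr78 stands at 7.52% against 34.3% on the left and insv at 12.1% against 1.49% on the right. Over all 722 AbdB peaks, shared ones included, embryonic Hr78 stands at 34.1% and insv at 5.40%.

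The 8 AbdB peaks with insv and without Notch were weak AbdB peaks, ranked 448 to 647 of 737. The best of them, on 3L at 10849842 to 10849968 (127 bp, score 6.25, fold 2.38), also overlapped Su(H), Cmi, CG8478 and embryonic Hr78. Su(H) was present at 6 of the 8, and at 30 of all 39 AbdB peaks with insv. insv is known to bind Su(H) and to repress with it, and both lists come from Kc167 cells. Another of the 8, on X at 12636301 to 12636709, overlapped insv alone. No peak of the 8 overlapped larval Hr78, so all 8 are also among the 16 behind the insv call against larval Hr78. The insv calls against larval Hr78 and against Notch are thus not separate results.

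On the small chromosome 4, which is rich in heterochromatin marks, AbdB had a smaller share of its peaks than larval Hr78 or Notch. AbdB had 5 peaks there (0.693% of 722, interval 0.225 to 1.61), larval Hr78 45 (3.60% of 1249) and Notch 64 (2.61% of 2448). The merged regions of all other lists that held no AbdB peak stood at 1.41% (82 of 5823, 1.12 to 1.74). That interval overlaps the one of AbdB, so a scarcity of AbdB against the series was not shown. Among AbdB peaks without larval Hr78, 1 of 266 was on 4, against 41 of 784 larval Hr78 peaks without AbdB (0.376% against 5.23%, exact adjusted p = 0.00104). This was the only arm of 6 that differed (16.7% of the tests; Fisher's exact test, two-sided, Benjamini-Hochberg over 12 tests, chosen after the arm counts were seen), and it was called in all 3 alternatives. Against Notch, 0 of 6 arms differed, also at an unadjusted p of 0.05, and 0 of 66 AbdB peaks without Notch were on 4 (an upper limit of 4.55%) against 59 of 1812. That limit lies above the Notch share of 3.26%, so a difference was not detectable in so few peaks.

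The 5 AbdB peaks on 4 all overlapped Notch, and 4 of them overlapped larval Hr78. The highest lay at 436202 to 436676 (score 10.3, fold 2.75), and the one with most partners, at 64436 to 64585 (score 5.63), overlapped 6 lists. All 5 lay between 64436 and 529370, while larval Hr78 peaks on 4 ran on to 1234916. On the other arms AbdB had 113 peaks on 2L, 152 on 2R, 121 on 3L, 163 on 3R and 168 on X.

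Where an AbdB peak was shared, the median summit distance was short for anti-GFP lists and longer for every list of another antibody except h. The median distance from the AbdB summit was 30 bp to Stat92E, 47 bp to embryonic Hr78, 49 bp to Notch, 54 bp to Lola and 54.5 bp to larval Hr78. Among the other antibodies it was 45 bp to h (27 peaks), 64 bp to prd-RF12 (25 peaks), 78 bp to CG8478 and 99 bp to insv (39 peaks). It was 111 bp to Cmi, 123 bp to Su(H), 136.5 bp to dm (4 peaks) and 146 bp to br (28 peaks). To cnc it was 175 bp (17 peaks) and to prd-RF13 261 bp (7 peaks). Mean peak width was 184 bp in Lola and 512 bp in Cmi, but 482 bp in Notch and 385 bp in Su(H), and its part in the distances was not tested. Within 50 bp lay 51.5% of the Notch summits and 28.6% of the Su(H) summits.

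Distances were compared within the same AbdB peaks by an exact two-sided sign test, adjusted over 4 pairs of lists. At AbdB peaks with both, the Notch summit was nearer than the Su(H) summit at 109 and farther at 69 (61.2%, 53.7 to 68.4, exact adjusted p = 0.0134). In AbdB peaks no wider than the median the share was 52.2% and not called (36 against 33 peaks). Larval Hr78 and Notch could not be ordered (208 against 217 peaks, 48.9%, 44.1 to 53.8, exact adjusted p = 0.698). The larval and embryonic Hr78 summits stood at 104 against 116 (47.3%, 40.5 to 54.1) and Notch and CG8478 at 123 against 112 (52.3%, 45.7 to 58.9), each with an adjusted p of 0.686 in the exact test.

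**Figure D5:**
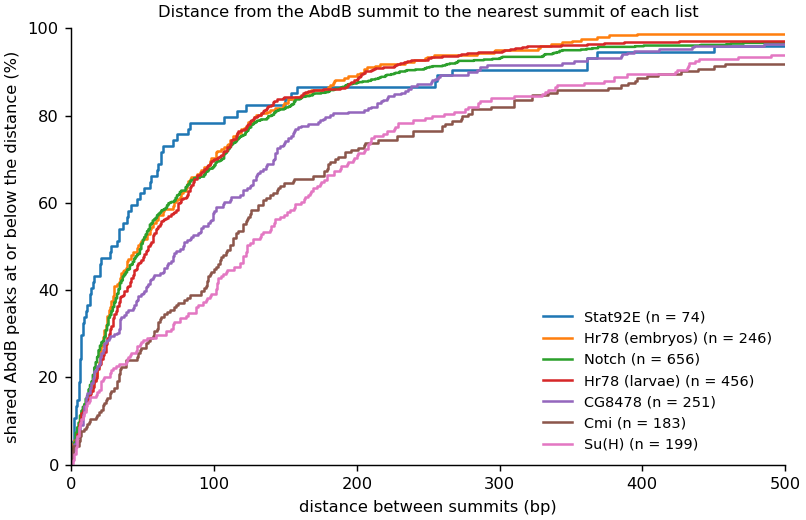
Cumulative share of shared AbdB peaks (percent) by the distance in bp from the AbdB summit to the nearest summit of the overlapping peaks in each of 7 lists; distances over 500 bp lie outside the axis. The Stat92E curve rises first, with a median of 30 bp, and the Cmi and Su(H) curves last, at 111 and 123 bp.

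AbdB peaks were spread along the arms, with a median gap of 83620 bp between neighbours. Within 10 kb of another AbdB peak lay 208 of the 722 (28.8%, 25.5 to 32.3). In lists cut to their 722 best peaks the share was 23.1% for Notch, 35.7% for larval Hr78, 45.6% for Su(H), 47.1% for CG8478 and 52.1% for Cmi. Only 9 runs of neighbours within 10 kb held 4 or more AbdB peaks.

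The longest run held 7 peaks on X from 12621910 to 12648132. Its AbdB peaks were weak (scores 5.30 to 6.51), and the same stretch held 11 CG8478 peaks, 6 Notch peaks and 6 Cmi peaks. A peak in it, at 12629943 to 12630318, overlapped 8 other lists. The second run was of another kind. It held 6 AbdB peaks on X from 1459819 to 1472794, with scores of 5.83 to 11.5, where Notch had 3 peaks, larval Hr78 had 2 and the other 13 lists had none. Its best AbdB peak, at 1472064 to 1472794, ranked 57 in the list with a fold of 3.31, and 2 of the 6 overlapped no other list.

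The next runs held 5 peaks each. On X at 13880423 to 13889390 the AbdB scores were 8.84 to 12.1, with 4 Notch, 3 Su(H) and 3 larval Hr78 peaks. On 2R at 6305710 to 6326091 there were 9 Su(H), 9 larval Hr78 and 8 Notch peaks. A run of 4 on 2R at 8878295 to 8884242 held 4 Cmi, 3 Notch, 3 CG8478 and 3 larval Hr78 peaks.

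AbdB peaks that overlapped no other list numbered 28 (3.88%). The highest lay on 2R at 10476175 to 10476473 (score 8.71, fold 2.99), ranked 165, and the nearest peak of any other list was 11621 bp away. Next came a peak in the second run on X, at 1460539 to 1461380 (842 bp, score 7.79, fold 2.81), with a Notch peak 75 bp away. The peaks on 2L at 10143453 to 10143897 and on 3R at 14301512 to 14301721 both scored 7.70, with the nearest Notch peak at 22207 and 896 bp, and the peak on 2L at 21078047 to 21078473 scored 7.66. Over the 28, the median gap to the nearest peak of another list was 4983 bp (range 64 to 80272), with 9 within 1 kb and 6 beyond 10 kb.

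The 15 AbdB peaks off the arms lay on the heterochromatic scaffolds 2RHet, 3LHet and 3RHet (4 each) and 2LHet (2) and on the unplaced scaffold Uextra (1). The highest were on 2RHet at 369981 to 370203 (score 10.3, fold 3.26) and at 471447 to 472281 (score 9.81, fold 3.14), and on 3LHet at 1396439 to 1397141 (score 9.70, fold 2.73). The other 12 scored 5.39 to 6.76, and the peak on Uextra at 439351 to 439719 had the lowest fold of the whole list, 1.95.

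All 15 overlapped Notch, 14 larval Hr78, 13 embryonic Hr78, 10 Stat92E and 9 Lola, the other anti-GFP lists. Of the lists of other antibodies, h overlapped 4, br 2, and CG8478, prd-RF12 and prd-RF13 1 each, while Su(H), Cmi, cnc, insv and dm overlapped none (an upper limit of 20%). These sequences are repetitive, and how reads with several matches were placed is not given in the sources used here. Off-arm peaks made up 2.04% of the AbdB list (1.14 to 3.33), 2.70% of the Notch list, 3.03% of the larval and 5.88% of the embryonic Hr78 list, 9.22% of the Stat92E list and 39% of the 100 peaks of the dm list. Su(H) had only 2 peaks off the arms, Cmi 5, cnc 1 and insv 1, against 68 for Notch and 39 for larval Hr78. Absence of overlap with such short off-arm lists was nearly fixed in advance and says little about AbdB.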

How the data were processed

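ChIP-seq peak lists of 16 groups were analysed. Libraries were tagmented from precipitated, sonicated chromatin, per the labels' protocols. Tools named in the submitters' processing notes were BWA, MACS2 and CASAVA 1.7.0, with build dm3. Their settings and any pooling of replicates were not given in the sources used here. Each deposited list gives positions, the authors' fold enrichment as a ratio, the authors' −log10 p as the score, and the deposited summit offset in bp, another value of the authors. No read counts or depths were used.

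On the 6 arms, peaks that had 1 bp or more in common counted as shared. Fisher's exact tests and sign tests (scipy 1.17.1, Python 3.11.15) were adjusted by Benjamini-Hochberg, with a threshold of 0.05, and the overlap step was tested on simulated lists. The limit for a count of 0 is 3 counts of the total. The peaks described were the 5 highest by score, by fold, by number of lists and by width, the 5 lowest, the 5 best without another list, the 5 largest runs and all off the arms; the peaks with insv and without Notch, those on 4, and the trio groupings were chosen after their values were seen. The regulators compared and the tests were chosen with earlier results of these data known. Genes near peaks, and sequences under them, were not analysed here, since no annotation or genome of build dm3 was used.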

Additional observations from a re-analysis of the deposited data

How the results depend on the processing

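No paired analysis was possible because each group has 1 list and no values per replicate, and for the same reason no replicate could be left out. The number of called lists was otherwise within 1.5 times of the main count. Against larval Hr78 it was 3, and 1 on the arms other than X and 1 among the higher-scoring peaks of each list, where Cmi turned to 3.09 points higher in the AbdB set (adjusted p over the 6 alternatives 0.015 to 0.875). Against Notch it was 3, and 6 with windows of 400 bp (6 higher, 0 lower), 1 on the arms other than X, 1 among the higher-scoring peaks and 8 with both lists cut to equal length (4 higher, 4 lower). For the split by score it was 7, and 4 at the median fold (3 higher, 1 lower), where CG8478 turned to −3.77 points. Notch was nearer than CG8478 at 48.3% of the higher-scoring AbdB peaks and nearer than Su(H) at 52.2% of the narrower ones. The cause of these changes was not tested; the sets are smaller on the arms other than X and among the higher-scoring peaks. Among single lists and arms, 69 values kept their direction and side of the threshold over the alternatives, 20 lost the call and 2 reversed. In the full lists the comparison with Notch rests on 66 AbdB peaks. Counting over peaks treats neighbouring peaks as separate, and no interval covers variation between animals or libraries.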
